A study of Homo sapiens with 7 samples.

Results

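The peaks described here are the N6-methyladenosine (m6A) peaks that lie in the 3' untranslated region (UTR) of an exon of 2000 nt or more. They were taken from the deposited table by its own columns, as every peak annotated to the 3' UTR whose exon is listed at 2000 nt or longer. The rule took 1354 of the 12769 listed peaks (10.6%, 95% Wilson interval 10.1 to 11.2%) and 53.2% of the 2547 peaks annotated to the 3' UTR. They lay on 877 transcripts of 874 genes. The rest of the 3' UTR peaks, 1193 on 1006 transcripts, lay in exons under 2000 nt.

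The series mapped m6A in untreated HepG2 cells, as the labels name them (HepG2 is a line from a human hepatocellular carcinoma), with 4 libraries of RNA precipitated by an anti-m6A antibody and 3 input libraries. Poly(A)-selected RNA was fragmented to about 100 nt before precipitation, which limits the resolution of a peak's position. The deposited values form 1 table for all 7 libraries, which gives every transcript an expression quantile and every peak a score, a segment, an exon and a position, so library depth is unknown and no replicate error or test of precipitate against input can be given. Intervals below are at 95% and cover counting error only, since neither peaks nor genes are replicates of a condition.

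The expression quantiles did not follow the cell label. Of 15 genes that define hepatocytes, 8 stood at the lowest quantile of the table (0.314), among them ALB, AFP, TTR, SERPINA1, APOA2 and APOB, which encode plasma proteins of the liver. Their median was 0.314, with a highest value of 0.619 for the fibrinogen chain FGB. Of 8 markers of Müllerian epithelium, 1 stood at the lowest quantile, KLK6, and WT1 (0.333), EMX2 (0.374) and PAX8 (0.496) were also low. The median was 0.572, with a highest value of 0.968 for MSLN, a cell surface glycoprotein. Both lists were chosen after their leading genes were known, and they do not settle what the cells are. None of these 23 genes had a 3' UTR peak in an exon of 2000 nt or more, beside 5.83% of all coding genes above the lowest quantile. The 8 hepatocyte genes and KLK6 at the lowest quantile lie outside the base of that share. With so few genes, none is near that share. The cells are therefore called the cells labelled HepG2.

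m6A is placed on nuclear RNA by a complex around METTL3 and METTL14, which methylates adenosines in the sequence RRACH (A or G, A or G, A, C, then A, C or U). The mark is read by YTH-domain proteins, some of which bring a messenger RNA to the deadenylation machinery. The 3' UTR, which most genes carry in their last exon, is where microRNAs and many RNA-binding proteins act on the stability, translation and localisation of a transcript.

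The sequences below show what the highest-scoring of these peaks looked like in the RNA. They are 9 of the 10 peaks with the highest authors' score among those whose transcript could be matched to GENCODE release 29 (GRCh38) and whose surroundings held RRACH. Each line gives 30 nt of the reference transcript, 5' to 3', around the RRACH pentamer nearest to the listed peak position, and capitals mark that pentamer.
RNF169: gcauuuugacaaAGACAgaggacuuggacc
FAM13A: aaaacaagcucaGGACUuuauucuauagag
PURB: caucugugaaugGAACUgaagugaacguga
PAK2: agaaggaauuguGGACUgaaucacuagccu
FREQ (now NCS1): gugaaggccuggGGACCucagagaacucug
CNNM1: cagcauagucugGGACUggaaaagagaugu
RIMKLB: aucagacuuugaGAACAuauugaaggcauu
ZNF498 (now ZSCAN25): ggaguaaaggcaAAACCuugacacguguug
CELSR1: cgcugaguccuaAGACUgcagucaaagcca

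The 9 sites were spread along the 3' UTR, and their listed peaks lay between 219 and 5497 nt past the stop codon. The peak of RNF169, a ubiquitin-binding protein recruited to DNA breaks, scored 6.56, and its site at chr11:74842215-74842244 (plus strand, GRCh38) was the farthest from the stop codon, with the peak 186 nt before the transcript end. That of RIMKLB, a glutamate ligase (chr12:8776827-8776856, plus strand), scored 5.39 and lay 3068 nt past the stop codon and 339 nt before the end. PURB, a purine-rich element binding protein that is encoded in 1 exon of 9069 nt (chr7:44883048-44883077, minus strand), had a peak of score 5.91 at 1319 nt.

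The other 6 peaks lay under 500 nt from the stop codon. They belonged to PAK2, a kinase activated by small GTPases (score 5.89, 219 nt, chr3:196828610-196828639, plus strand), CELSR1, a cadherin of planar cell polarity (5.27, 256 nt, chr22:46362911-46362940, minus strand), and CNNM1, a member of the cyclin M family of membrane proteins (5.43, 277 nt, chr10:99391768-99391797, plus strand). ZNF498, a zinc finger protein (5.30, 318 nt, chr7:99630323-99630352, plus strand), FAM13A, a protein with a GTPase-activating domain (6.04, 418 nt, chr4:88728101-88728130, minus strand), and FREQ, a neuronal calcium sensor (5.55, 430 nt, chr9:130233385-130233414, plus strand), followed. The central adenosine of the pentamer was within 4 nt of the listed position in 6 of the 9, and the largest distance was 28 nt in PURB. GGACU was the nearest pentamer in 3 of the 9, and no other pentamer was nearest in more than 1.

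The scores of these peaks lay close to those of other 3' UTR peaks and below those of stop codon peaks. The score is the authors' own value per peak, with no stated scale and no value under 2.00, and it is used here only to rank and group peaks of this table. The 1354 peaks ran from 2.00 to 7.49 with a median of 3.27 (3.19 to 3.34) and quartiles of 2.58 and 4.07, beside a median of 3.15 over all listed peaks. The 3' UTR peaks in shorter exons had a median of 3.16 (3.08 to 3.23), so that the difference was 0.12 and the intervals of the medians overlapped. Stop codon peaks, which lie within 200 nt of the stop codon, had a higher median in exons of 2000 nt or more, 3.74 (3.65 to 3.81, n = 1241), a difference of -0.47 from the 3' UTR peaks of such exons. A score of 5 or more was reached by 109 of the 1354 (8.05%, 6.72 to 9.62%), by 88 of the 3' UTR peaks in shorter exons (7.38%, 6.03 to 9.0%) and by 187 of the stop codon peaks (15.1%, 13.2 to 17.2%). The small difference from shorter exons rested on the set of peaks used. It was 0.33 with the highest-scoring peak of each gene, 0.21 with the exon threshold at 3000 nt and -0.046 among transcripts with an expression quantile above 0.9. The first of these choices is unequal, since long exons offered more peaks per transcript (1354 on 877) than shorter ones (1193 on 1006). The part of this choice in the 0.33 was not tested.

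**Figure D1:**
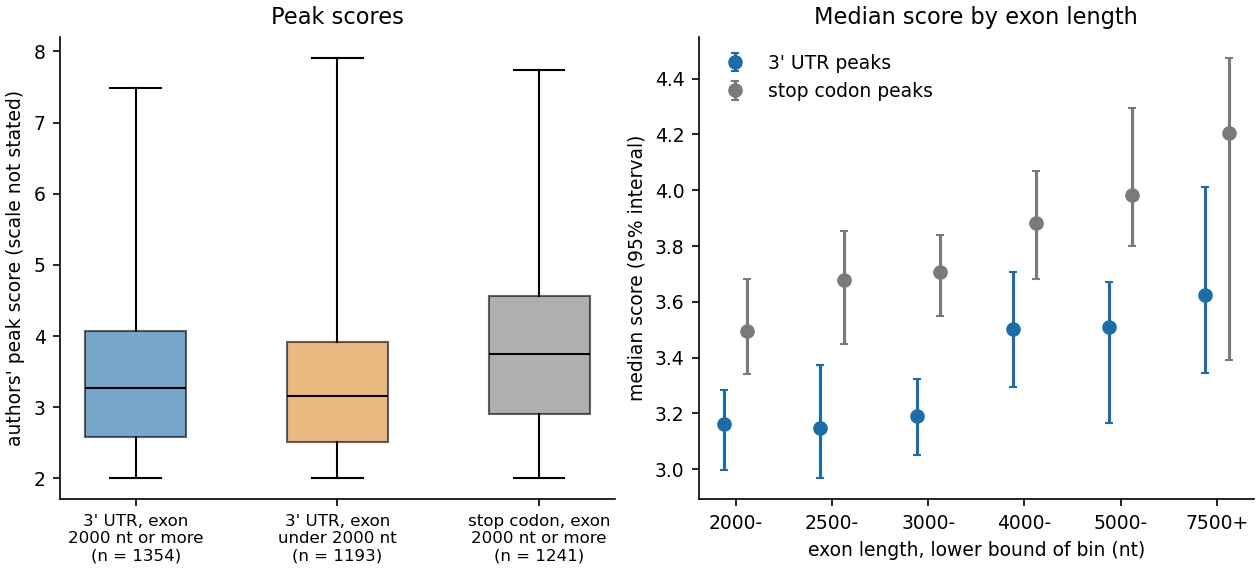
Left, authors' peak score (scale not stated) of 3' UTR peaks in exons of 2000 nt or more, 3' UTR peaks in shorter exons and stop codon peaks in exons of 2000 nt or more (box, quartiles; line, median; whiskers, lowest and highest). Right, median score with its 95% order-statistic interval for 3' UTR and stop codon peaks by exon length; the medians of the 3' UTR peaks lie between 3.15 and 3.63, and those of the stop codon peaks between 3.49 and 4.21.

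The 15 genes with the highest-scoring peaks were varied in function. OXSR1, a kinase of ion transport and osmotic stress (chromosome 3, 38182030 to 38271983, plus strand, coordinates of the table, whose build is not stated), had the highest score, 7.49, at position 2610 of the transcript in exon 18 (2672 nt). This exon held 3 further peaks at 2299, 2954 and 4126, which scored 3.92, 2.20 and 2.63. The highest peak thus stood well above its neighbours in the same exon. CERK, ceramide kinase (chromosome 22, minus strand), had 1 peak in all, of score 6.94, in exon 13 (2797 nt). KITLG, the ligand of the receptor KIT (chromosome 12, minus strand), had peaks of 6.89 and 3.28 in exon 10 (4392 nt), at an expression quantile of 0.562, under the lower quartile of the 877 transcripts (0.696).

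Proteins of the cell surface and an enzyme that modifies them were also among the 15. HS6ST3, a heparan sulfate sulfotransferase (chromosome 13), scored 6.69 at position 7115 of the transcript, in exon 2 (7069 nt), far from its stop codon peak at 1342, which scored 5.40. NOTCH2, a Notch receptor (chromosome 1), scored 6.64 in exon 34 (5142 nt), against 4.35 for its stop codon peak in the same exon. The activin receptor ACVR1B (chromosome 12) scored 6.4 in exon 9 (3092 nt), and the amino acid transporter SLC7A5 (chromosome 16) scored 6.18 in exon 10 (3003 nt). SLC7A5 was also the most expressed transcript of the 877, with a quantile of 0.998, and 3 further 3' UTR peaks in the same exon scored 3.62, 2.16 and 2.11.

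The other genes among the 15 act inside the cell. RNF169 scored 6.56. PDPR, the regulatory subunit of pyruvate dehydrogenase phosphatase (chromosome 16), scored 6.53 at position 7611 of a transcript whose exon 19 (4807 nt) held 3 further 3' UTR peaks of 4.88, 3.30 and 2.56. CROP (now LUC7L3), a splicing protein, scored 6.47, and ALDH3A2, a fatty aldehyde dehydrogenase, scored 6.38. NAT11 (now NAA40), an acetyltransferase of histones, scored 6.31, CHTF8, a subunit of a clamp loader, 6.22, and NAV2, a neuron navigator protein, 6.2. The last was CCDC6, a coiled-coil protein known as a fusion partner of RET, at 6.2. Of the 15 transcripts, CERK, CROP and NAT11 had no other peak.

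Most transcripts carried 1 such peak and some carried many. There were 565 transcripts with 1, 195 with 2, 81 with 3, 28 with 4, 6 with 5 and 2 with 7, a mean of 1.54. Peaks on transcripts with 1 had a median score of 3.34 (3.24 to 3.49), against 3.21 (3.10 to 3.31) on transcripts with 2 or more, and these intervals overlapped. Neighbouring peaks of a transcript were a median of 562 nt apart (498 to 621, n = 477 gaps, quartiles 325 and 1021), and 34 gaps (7.13%, 5.15 to 9.80%) were under 200 nt. Within the 312 transcripts that had several, the highest and lowest score differed by a median of 1.16 (1.07 to 1.31). The peak nearest the 5' end scored above the one nearest the 3' end in 170 of the 312 (54.5%, 48.9 to 59.9%), with medians of 3.32 and 3.18.

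The genes with the most peaks showed this spread. ZBTB40, a zinc finger protein (chromosome 1), had 7 in exon 18 (4956 nt), at positions 4353 to 7987, with scores of 2.38, 2.75, 2.73, 4.09, 3.35, 4.03 and 2.32 in 5' to 3' order. The scores rose and fell along the exon with no run in 1 direction. PIP5K1C, a phosphatidylinositol phosphate kinase (chromosome 19), also had 7, in exon 18 (2986 nt), with scores of 2.46, 3.92, 2.84, 3.49, 2.40, 2.95 and 2.83, and no peak elsewhere. On 3 genes, among them LASP1, which encodes an actin-binding protein, the peaks were listed on 2 transcripts that share the exon, and 1349 peaks remained when each shared exon was counted once.

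Another 5 genes had 5 peaks each. In FBXO31, an F-box subunit of a ubiquitin ligase (chromosome 16), exon 9 (2175 nt) carried scores of 3.31, 2.01, 3.88, 4.62 and 4.31, the highest toward the 3' end. TTYH3, a membrane protein of the tweety family (chromosome 7, exon 14 of 3135 nt), had 4.01, 3.32, 2.51, 3.31 and 3.87. SMAD3, which carries TGF-beta signals to the nucleus (chromosome 15, exon 9 of 4783 nt), had 2.45, 2.26, 3.78, 2.92 and 3.78, with the first pair of peaks at positions 1789 and 1851. Those positions are closer together than the fragment length. ZNF618, a zinc finger protein (chromosome 9, exon 14 of 7945 nt), and CHST3, a chondroitin sulfotransferase (chromosome 10, exon 3 of 6383 nt), had top scores of 4.15 and 3.62. The highest score of any of these 7 genes was 4.62, below each of the 15 highest peaks described above.

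**Figure D2:**
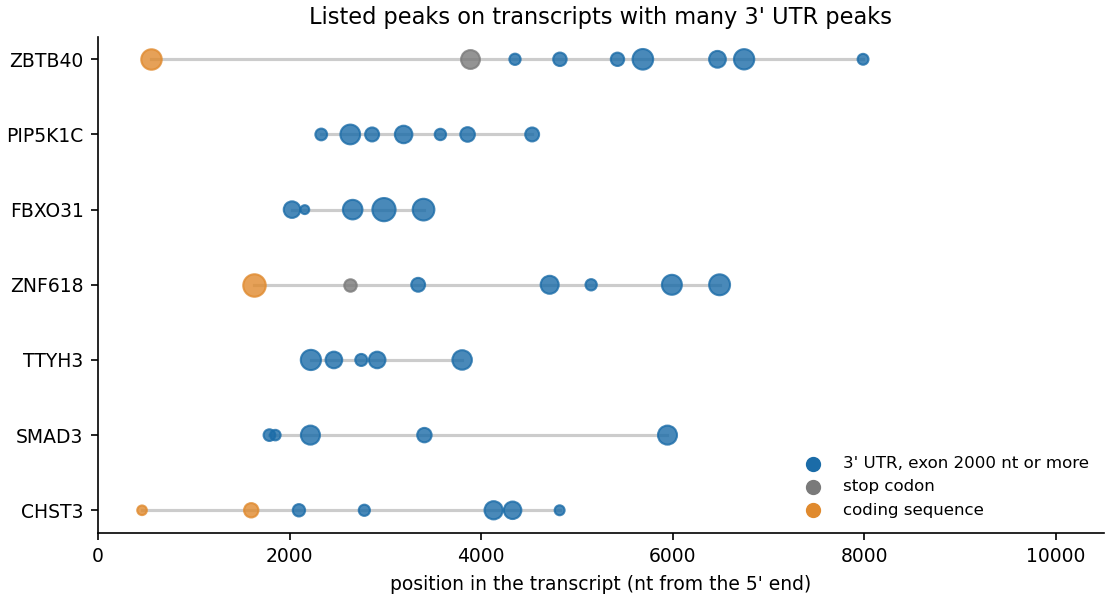
Listed peaks along the transcripts of 7 of the genes with the most 3' UTR peaks in exons of 2000 nt or more, by position from the 5' end in nt; the area of a point grows with its score, and a grey line joins the first and last peak. ZBTB40 and PIP5K1C have 7 such peaks each, and PIP5K1C, FBXO31, TTYH3 and SMAD3 have no peak outside the 3' UTR.

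The exons had a median length of 3130 nt over the 877 transcripts (quartiles 2448 and 4122). The longest was exon 22 of AAK1, a kinase of clathrin-mediated endocytosis (chromosome 2, 17969 nt), whose 3 peaks scored 4.69, 3.01 and 2.77. AHNAK2, a scaffold protein (17546 nt), had 1 peak of 2.11, and ONECUT2, a liver-enriched transcription factor (14862 nt), had 3 of 3.24, 3.19 and 2.78. ENTPD1, an ectonucleotidase (11090 nt), reached 4.27, and VISA (now MAVS), an adaptor of antiviral signalling (10433 nt), reached 5.62. The longest exons therefore covered scores on both sides of the median. Exon 1 held 65 of the peaks, on 51 transcripts, and no peak of the 1354 had a listed peak in a later exon of its transcript. The threshold fell within a continuous range of lengths. PHF2 (2000 nt), TLE3 (2001 nt) and CAMK2G (2005 nt) lay just inside it with top scores of 3.65, 2.46 and 5.36, and TATDN2 (1998 nt), LRRC59 (1998 nt) and TAF1C (1997 nt) just outside it with 2.78, 2.26 and 4.09.

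Scores were higher in longer exons. The median was 3.16 (3.00 to 3.29, n = 319) in exons of 2000 to under 2500 nt, 3.15 (n = 264) to 3000 nt and 3.19 (n = 353) to 4000 nt. It was 3.50 (3.29 to 3.71, n = 227) from 4000 nt, 3.51 (3.17 to 3.67, n = 138) from 5000 nt and 3.63 (3.35 to 4.01, n = 53) from 7500 nt. Stop codon peaks in the same exon classes were higher throughout, with medians of 3.49, 3.68, 3.71, 3.88, 3.98 and 4.21. Expression moved with exon length, since the median quantile of the 3' UTR peaks was 0.834 in the shortest class and 0.710 in the longest. Scores were also lower at higher expression. The median was 3.57 for quantiles between 0.5 and 0.6, then 3.49, 3.25 and 3.18 for the next classes up to 0.7, 0.8 and 0.9. It was 3.13 between 0.9 and 0.98 and 2.83 above 0.98, where there were 19 peaks.

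Within classes of expression the exon difference was uneven. Between quantiles of 0.6 and 0.7, peaks in exons of 4000 nt or more had a median of 3.79 (3.55 to 4.12, n = 94), against 3.33 (3.10 to 3.52, n = 142) in exons of 2000 to under 4000 nt. Between 0.7 and 0.8 the medians were 3.55 (3.35 to 3.86, n = 135) and 3.09 (2.95 to 3.25, n = 239). In these 2 classes the intervals did not overlap. In the others they did, with 3.28 against 3.16 between 0.8 and 0.9, 3.14 against 3.07 between 0.9 and 0.98, and 3.52 against 3.72 between 0.5 and 0.6.

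Over all coding transcripts, whatever their last exon, the share with such a peak was highest at quantiles between 0.7 and 0.9. Between quantiles of 0.5 and 0.6, 2.65% of coding transcripts (2.04 to 3.44%) had a 3' UTR peak in an exon of 2000 nt or more. The next classes, up to 0.7, 0.8 and 0.9, had 7.42%, 9.99% and 10.4% (9.30 to 11.7%). Between 0.9 and 0.98 it was 6.49% (5.50 to 7.64%), and above 0.98 it was 2.02% (1.10 to 3.67%). This fall was not seen among transcripts matched to GENCODE with a last exon of 2000 nt or more, but only 33 of them were above 0.9. That class is too small to show or exclude such a fall. Of the matched transcripts, 23 of 179 (12.8%, 8.72 to 18.5%) had such a peak between 0.5 and 0.7 and 23 of 70 (32.9%, 23.0 to 44.5%) up to 0.8. The counts were 21 of 43 (48.8%, 34.6 to 63.25%) up to 0.9 and 15 of 33 (45.5%, 29.8 to 62.0%) above 0.9. Per 10000 nt of 3' UTR the same classes had 0.546, 1.85, 3.53 and 3.60 peaks. For 3' UTR peaks in shorter exons the share kept growing to a higher class, with 0.933% between 0.5 and 0.6, 12.9% between 0.8 and 0.9, 14.9% (13.4 to 16.5%) between 0.9 and 0.98 and 11.9% (9.34 to 15.0%) above. The median quantile of the transcripts was 0.788 (0.776 to 0.798) for long exons and 0.860 (0.850 to 0.870) for shorter ones. Only 4 of the 877 transcripts had a quantile of 0.5 or less.

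**Figure D3:**
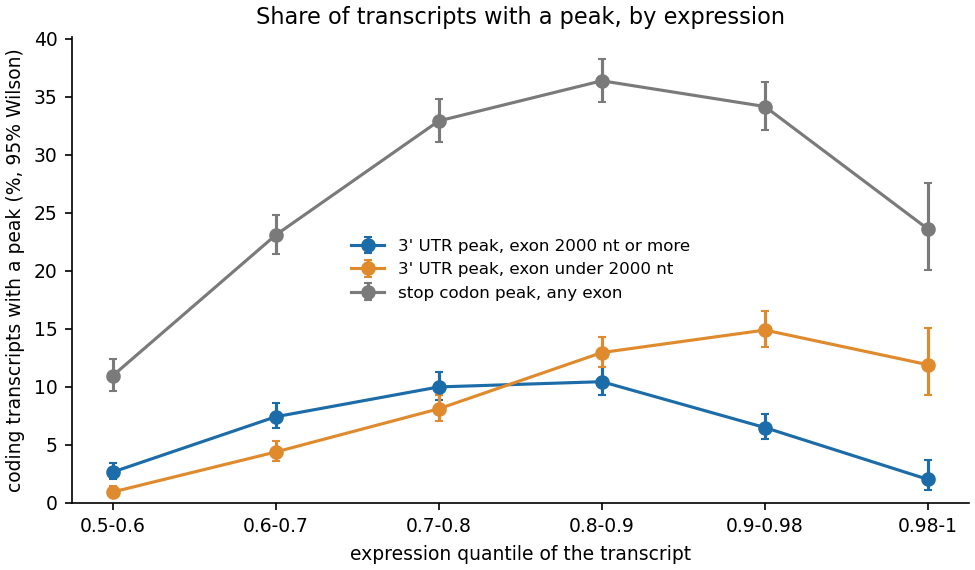
Share of coding transcripts with a peak of each kind by the transcript's expression quantile, with 95% Wilson intervals. The share with a 3' UTR peak in an exon of 2000 nt or more is 2.65% in the lowest class, 10.4% between 0.8 and 0.9 and 2.02% in the highest class.

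Transcripts matched to GENCODE could be given a last exon length also without a peak. Those without a peak were matched with no check of exons, so their last exon may be that of another isoform. Within the same class of expression, long last exons by this match had a peak more often. At quantiles above 0.7, 59 of 146 transcripts with a last exon of 2000 nt or more had one in its 3' UTR (40.4%, 32.8 to 48.5%), against 85 of 441 with a shorter last exon (19.3%, 15.9 to 23.2%). From 0.5 to 0.7 the shares were 12.8% and 12 of 257 (4.67%, 2.69 to 7.98%). Per nucleotide of the long 3' UTRs, with all expression levels pooled, the number was lower the longer the exon. It was 1.46 peaks per 10000 nt (1.11 to 1.90, exact Poisson interval) in last exons of 2000 to under 3000 nt, 0.838 (0.557 to 1.21) to 4000 nt and 0.599 (0.422 to 0.825) above. The share of transcripts with a peak was 17.8%, 17.1% and 14.6% in these classes. The parts of expression and of distance from the stop codon in this fall were not tested.

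The transcripts usually carried m6A peaks in other segments too. Besides the 1354 peaks, 1094 others were listed on the 877 transcripts, of which 549 lay in the coding sequence and 421 around the stop codon. A stop codon peak was present on 399 transcripts (45.5%, 42.2 to 48.8%), a coding sequence peak on 292 (33.3%, 30.3 to 36.5%) and a peak at the transcript start on 85 (9.69%, 7.91 to 11.8%). The 3' UTR peaks were the only ones on 279 transcripts (31.8%, 28.8 to 35.0%). On the other 598 transcripts, which had peaks of other segments or exons too, the highest peak was one of the 1354 in 263 (44.0%, 40.05 to 48.0%).

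Where a stop codon peak shared the exon, the 3' UTR peak was the lower of the pair somewhat more often. On 391 such transcripts the highest 3' UTR peak scored a median of 3.54 and the highest stop codon peak 3.7, with a median difference of -0.20, and the 3' UTR peak was higher in 175 (44.8%, 39.9 to 49.7%). On the 253 of these with only 1 such 3' UTR peak, which leaves out the advantage of a choice among several, it was higher in 95 (37.5%, 31.8 to 43.7%) and the median difference was -0.44.

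Positions along the 3' UTR could be measured for 122 of the peaks, on 82 transcripts. In these the length of the genomic span and every exon with a listed peak equalled those of a GENCODE transcript. Their median score was 3.49, against 3.27 for all 1354. All 122 lay in the last exon, and that exon also held the stop codon in 80 of the 82 transcripts. Listed positions were a median of 720.5 nt past the stop codon (589 to 1047, quartiles 401 and 1475) and 1655 nt before the transcript end, in 3' UTRs of median length 2602 nt. Of the 122, 72 (59.0%, 50.1 to 67.3%) lay under 1000 nt from the stop codon and 84 (68.9%, 60.2 to 76.4%) lay nearer to the stop codon than to the end.

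The density fell with distance from the stop codon. In all 490 expressed matched transcripts with a long last exon, stop codon peaks stood at 6.02 per 10000 nt (4.58 to 7.77) in the first 200 nt of the 3' UTR. Beyond that the peaks described here stood at 2.82 (2.03 to 3.83, 41 peaks) up to 500 nt, 1.32 (0.897 to 1.88, 31 peaks) to 1000 nt and 0.670 (0.445 to 0.968, 28 peaks) to 2000 nt. Farther out the values were 0.420 (11 peaks) to 3000 nt, 0.432 (9 peaks) to 5000 nt and 0.275 (2 peaks) beyond. Shorter last exons gave 3.05 (2.38 to 3.85), 1.64 (1.14 to 2.29) and 0.896 (0.410 to 1.70) over the first 3 of these ranges. Each interval overlapped that of the long exons. These densities pool all expression levels, which differed between the sets. Quantiles above 0.7 were held by 146 of the 490 long-exon transcripts and 441 of the 972 shorter ones. Densities at equal expression were not compared.

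Positions nearer than 1000 nt thus held 3.64 times as many peaks per nucleotide as those farther (2.50 to 5.34), 1.90 against 0.520 per 10000 nt. The consensus itself was equally frequent in both parts, with 126.2 RRACH sites per 10000 nt nearer and 125.9 farther, and 7.37 and 7.96 for GGACU. There were accordingly 15.0 peaks per 1000 RRACH sites nearer than 1000 nt and 4.13 farther. No rise was seen toward the poly(A) end, where the last 200 nt held 0.410 peaks per 10000 nt (0.112 to 1.05, 4 peaks) and the next 300 nt 0.90 (0.479 to 1.54).

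**Figure D4:**
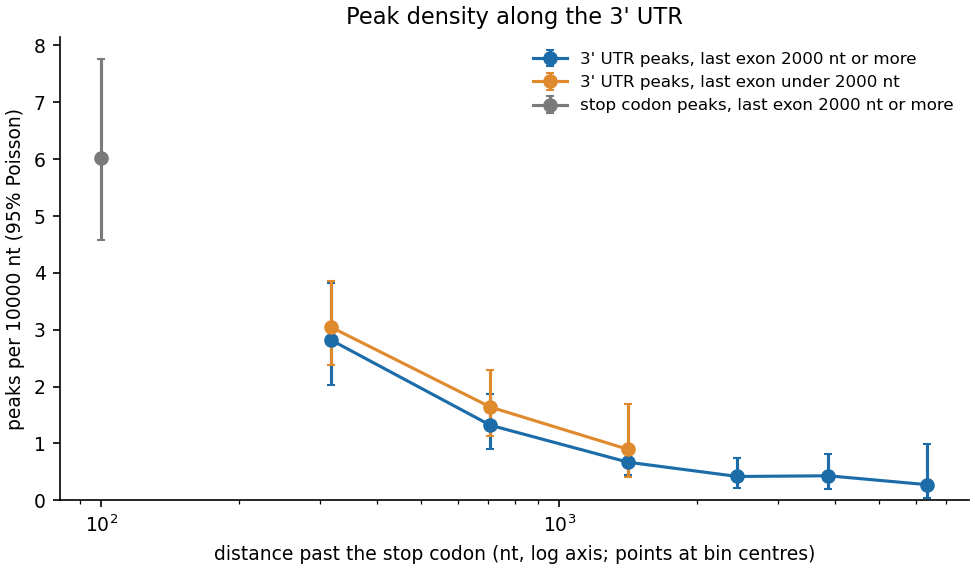
Peaks per 10000 nt of 3' UTR (95% exact Poisson intervals) by distance past the stop codon (nt, log axis, points at bin centres; the last bin is open-ended) for 3' UTR peaks in last exons of 2000 nt or more, 3' UTR peaks in shorter last exons and stop codon peaks in last exons of 2000 nt or more. The long-exon values fall with distance, with 2.82 up to 500 nt and 0.670 between 1000 and 2000 nt.

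RRACH was found within 50 nt of the listed position for 111 of the 122 peaks (91.0%, 84.6 to 94.9%). It was present in 92 of the 122 windows of the same length, 101 nt, placed 300 nt away on the same transcript (75.4%, 67.1 to 82.2%), all of which lay in the 3' UTR. The excess of 15.6 percentage points was larger than counting error, with 27 pairs positive at the peak only and 8 in the other window only (McNemar's exact test, two-sided, p = 0.00188, n = 122). With windows reaching 100 nt it was 5.79 points and missed the threshold of 0.05 (McNemar's exact p = 0.0923, n = 121). Of 1909 windows tiled over the same 3' UTRs away from listed peaks, 70.1% (68.1 to 72.2%) held RRACH on the sense strand. The 3' UTR peaks in shorter exons had it in 102 of 111 (91.9%, 85.3 to 95.7%).

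The pentamers differed widely. GGACU lay near 36 of the 122 peaks (29.5%, 22.1 to 38.1%), against 8 of the 122 windows 300 nt away (6.56%, 3.36 to 12.4%) and 7.02% of the tiles. Shorter exons had it near 36 of 111 peaks (32.4%, 24.4 to 41.6%). Counted per nucleotide, GGACU was 4.66 times as frequent at the peaks as in the tiles, followed by AGACU at 3.26, GGACC at 3.23 and GAACU at 2.80. Pentamers beginning AAAC were lowest, at 1.08 for AAACU, 0.755 for AAACA and 0.553 for AAACC. The peak windows were also richer in G (27.5% of bases against 23.9% in tiles) and C (26.75% against 23.3%), and poorer in U (21.6% against 27.9%). The part of base composition in these ratios was not tested.

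The number of sites per window varied. There was no RRACH in 11 of the 122 windows, 1 in 25, 2 in 28, 3 in 37 and 4 or more in 21. The nearest lay a median of 10 nt from the listed position (8 to 14, n = 111). Peaks with GGACU in the window had a median score of 3.64 (3.47 to 4.17, n = 36), those with another RRACH 3.42 (2.95 to 3.67, n = 75) and those without RRACH 3.23 (2.21 to 4.54, n = 11). These intervals overlapped.

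**Figure D5:**
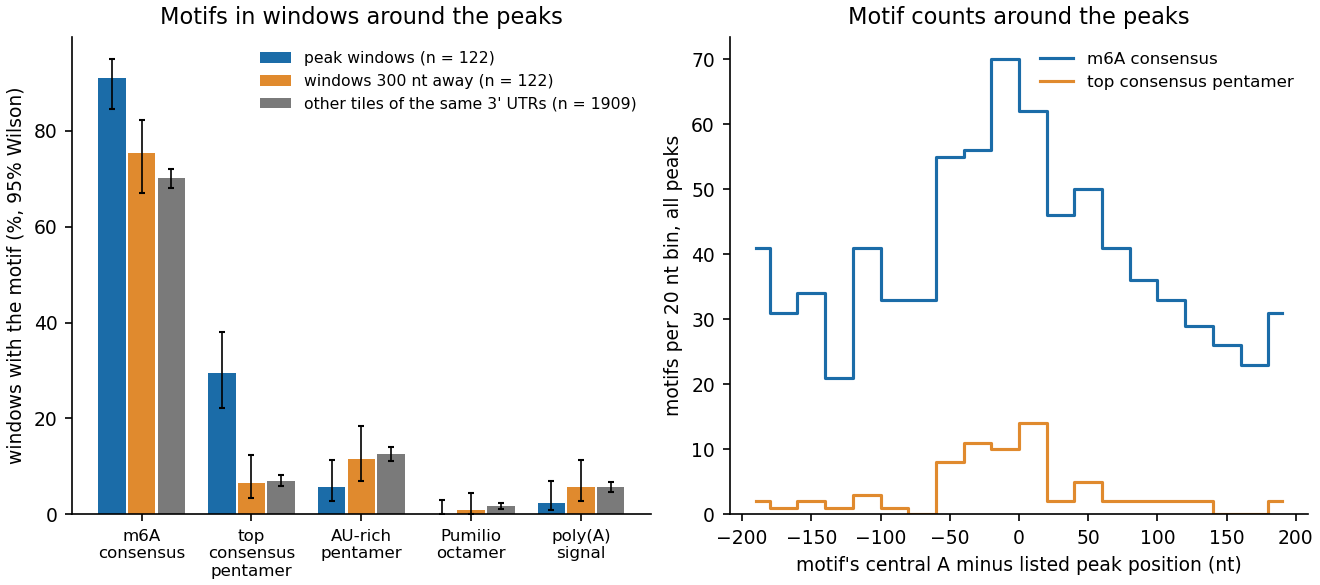
Left, share of 101 nt windows that hold each motif (95% Wilson intervals) at 122 3' UTR peaks in exons of 2000 nt or more, in windows 300 nt away on the same transcripts and in 1909 other tiles of the same 3' UTRs; the m6A consensus was in 91.0%, 75.4% and 70.1%. Right, number of consensus motifs and of its most frequent pentamer per 20 nt around the listed peak positions, summed over the peaks; consensus counts are highest, at 70, in the 20 nt just upstream of the position.

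Which genes carried these peaks was followed through 9 gene lists. Among all 15003 coding genes above the lowest expression quantile, 874 (5.83%) had a 3' UTR peak in an exon of 2000 nt or more, and among the 5816 whose GENCODE last exon reaches 2000 nt the share was 13.8% (805 genes). The lists are read beside both values and were not tested.

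The growth factor list had the highest share. Of 24 growth factor receptors, RAS and PI3K genes with a long last exon, 7 had such a peak (29.2%), with 13 peaks in all. EGFR, the epidermal growth factor receptor, scored 6.10 in exon 28 (2083 nt), and SOS1, an activator of RAS, scored 3.77. IGF1R, the receptor of insulin-like growth factor, had 4 peaks of 3.73, 3.55, 3.06 and 2.66 in exon 21 (7470 nt), and MET, the receptor of hepatocyte growth factor, had 3.54 and 3.40. The kinase AKT1, the most expressed gene of the list without one, had a quantile of 0.975. Of 31 TGF-beta, BMP, Wnt and Notch genes with a long last exon, 6 did (19.4%), led by NOTCH2 and ACVR1B, then SMAD3 with 5 peaks and the Wnt receptor FZD4 at 3.55, but not the coreceptor LRP5.

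Machinery that acts on 3' UTRs was marked in part. Of 23 genes of microRNA silencing and deadenylation with a long last exon, 5 had a peak (21.7%). They included the decapping-associated helicase DDX6 (5.12), the scaffold TNRC6A (4.19), the Argonaute EIF2C1, now AGO1 (3.94), and the deadenylase subunit PAN3 (3.23), but not CNOT3. Of 30 genes for 3' UTR-binding proteins, 3 did (10.0%): TIAL1 (4.57), ELAVL1 (4.05), which stabilises AU-rich messages, and ZFP36L2 (2.42), which destabilises them, but not HNRNPD. None of 10 cleavage and polyadenylation genes with a long last exon did, nor any of all 20 expressed genes of that list. These are few genes beside background shares of 13.8% and 5.83%. The list also holds the poly(A)-binding protein PABPC1, its most expressed gene.

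The other lists were close to the 13.8% of all genes with a long last exon or rested on few genes. Cell cycle and p53 genes had 2 of 12 (16.7%), E2F3, a transcription factor of S phase entry (5.36), and the kinase inhibitor CDKN2B (3.35), but not CDKN2A. Liver-enriched transcription factors had 2 of 9 (22.2%) and 3 of all 17 expressed. Those 3 were PPARA, which controls fatty acid oxidation and had 3 peaks up to 4.90, RXRA, its partner, with 2 up to 3.73, and ONECUT2, while CEBPB had none. Vesicle traffic genes had 3 of 26 (11.5%), and over all 38 expressed ones the peaks were in RAB35 (4.82), SNX1 (4.19), ARF6 (3.06) and RAB11FIP1 (2.76), but not in ARF1. Of 80 expressed ribosomal protein genes 2 had one (2.50%), RPL28 at 2.81 and RPL27A at 2.02, and of the 14 with a long GENCODE last exon these were 14.3%. RPL8, the most expressed of that list, had none.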

How the data were processed

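The deposited file is 1 table of 25918 transcripts. It covers 4 anti-m6A and 3 input libraries, sequenced, per the labels' protocols, on an Illumina Genome Analyzer IIx. The aligner, the peak caller and the genome build used by the authors are not stated there, and no other source used here gives them. Per the file headers and values, expression is a quantile, a fraction from 0 to 1, the number of peaks per transcript is a whole count, and each peak has the authors' deposited score (2.00 to 7.91, scale unknown). No listed score is under 2.00, so weaker peaks are not seen, and the part of read depth in which transcripts have peaks was not tested. No column belongs to a library.

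Cells with several peaks were split to 1 line per peak. Members, lists and comparisons were chosen with earlier results of these data known, and the 2 marker lists of cell type after their leading genes were known. Transcripts were matched to GENCODE release 29 by symbol (older ones through RefSeq, GRCh38.p14), chromosome, strand and exact length of the genomic span. For each listed peak the number and length of its exon also had to be equal. Other exons were not compared, and transcripts without a peak were matched with no check of exons. Of 1242 peaks on matched coding transcripts, 99.4% had the same segment from GENCODE. No start coordinate equalled GRCh38, and the table's build is therefore not GRCh38. Where several GENCODE transcripts were equally near (181 matches), 1 was used.

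Motifs were read on the sense strand within 50 nt of a listed position, which is near the fragment length of about 100 nt. McNemar's exact test compared RRACH with windows 300 nt away, at a threshold of 0.05. Of those windows, 13 overlapped the window of another listed peak. Shares have Wilson, densities exact Poisson and medians order-statistic intervals at 95%. The window, density and interval steps were tested on simulated data. The genes named are those of the 15 top scores, the 8 that hold the most members, the 5 in the longest exons, up to 4 per list by score with the most expressed gene without a member, the 10 top-scoring matched sites and 3 on either side of the exon threshold; the marker genes of cell type were chosen after their values were seen. A few of these genes, and 1 of these sites, are left out of the text. Python 3.11.15, numpy 2.4.6, scipy 1.17.1, pandas 2.3.3 and matplotlib 3.10.9 were used.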

Additional observations from a re-analysis of the deposited data

How the results depend on the processing

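Of 29 alternatives, 1 reversed a direction, 1 ended a call and 6 moved a median, a difference or a count, and 3 of the 29 were chosen after seeing the data. The number of peaks was 771 with exons of 3000 nt or more, 805 with scores of 3 or more and 1763 with exons of 1500 nt or more, against 1354. Their median score was 3.62 with the highest-scoring peak per gene, a set selected on score, 3.37 in exons of 3000 nt or more and 3.08 at expression quantiles above 0.9, against 3.27. The score difference from shorter exons was 0.33 with 1 peak per gene, 0.21 with exons of 3000 nt or more and -0.046 at quantiles above 0.9, against 0.12. The 1 peak per gene was chosen by score, from more peaks per transcript in long exons than in shorter ones. The RRACH excess was 5.79 percentage points in windows of 100 nt (McNemar's exact p = 0.0923, n = 121), against 15.6. Under the other 10 alternatives, each past the threshold, the excess was between 9.84 and 31.2 points. The lowest of these was for another motif, DRACH (A, G or U in the first place), and GGACU gave 22.95. For RRACH itself the lowest of them was 13.1, with the control window upstream where it fitted. The median distance from the stop codon stayed between 720.5 and 815.5 nt, and the density ratio was 3.07 to 3.64. The cause of these changes was not tested.

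No paired analysis was possible because no column belongs to a library. The depth of the libraries is unknown, positions and motifs rest on 122 of 1354 peaks, and peaks under the authors' score threshold are not listed.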

Other observations

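Other regulatory motifs of 3' UTRs were found near few of these peaks. AUUUA, the core of AU-rich elements, lay within 50 nt of 7 of the 122 matched peaks (5.74%, 95% Wilson interval 2.81 to 11.4%), against 14 of 122 windows 300 nt away (11.5%, 6.96 to 18.3%) and 12.5% of 1909 tiles of the same 3' UTRs. The poly(A) signal AAUAAA lay near 3 peaks (2.46%, 0.840 to 6.98%), against 7 windows 300 nt away (5.74%) and 5.61% of tiles. The Pumilio octamer UGUANAUA lay near none of the 122 peaks, for which the Wilson interval reaches 3.05%, against 1 window 300 nt away and 1.68% of tiles. The intervals of the peaks overlapped those of the windows 300 nt away for all 3 motifs, the peak windows were poorer in U than the tiles, and the part of base composition was not tested.

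Some of the peaks lay past an AAUAAA hexamer. Of the 122 matched peaks, 28 had an AAUAAA between the stop codon and the listed position. These stretches had a median of 720.5 nt, and AAUAAA was in 5.61% of the 101 nt tiles of the same 3' UTRs. Stretches of equal length without a peak were not counted, so the 28 are not read as an excess. A poly(A) signal, AAUAAA or AUUAAA, was in the last 50 nt of 67 of the 82 transcripts, and 4 of the 122 peaks lay within 200 nt of the transcript end. Which 3' ends were used in these cells was not measured.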
